A study of Mus musculus with 2 samples.

Results

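Cycling basal cells are cells of the outer layer of the mammary epithelium that held transcripts of the cell division programme when they were captured. They were chosen from the measured values. A barcode was kept with at least 1000 UMIs (unique molecular identifiers, each counting 1 captured transcript), at least 500 detected genes and at most 20% mitochondrial UMIs. A kept cell was basal if its UMIs of Krt14, Krt5, Krt17, Acta2, Myh11 and Mylk numbered at least 5 and exceeded those of the luminal genes Krt8, Krt18, Krt7, Krt19, Cldn3 and Cldn4. A basal cell was cycling if it held at least 3 UMIs of 8 cell cycle genes. These were the proliferation marker Mki67, the topoisomerase gene Top2a, Cdk1 and its partner Ccnb1 (cyclin B1), the passenger protein gene Birc5 (survivin), the kinetochore and spindle genes Cenpf and Nusap1, and Ube2c, which tags cyclins for destruction. The rule found 458 cycling basal cells among 16026 kept cells, 201 in the Ehf_KO library and 257 in the WT library. The other 5418 and 6284 basal cells of the same libraries, with at most 2 cell cycle UMIs, were the non-cycling basal cells they were set against.

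The study sequenced single cells of mouse mammary glands with the 10x Chromium 3' kit, which counts the 3' ends of transcripts. One library came from Ehf_KO mice, with EhfKO given as strain, and the other from WT mice. All were adult females at 18.5 days of pregnancy. For each library the thoracic and inguinal glands of 2 females were pooled, and living cells negative for Ter119, CD31 and CD45 were sorted as mammary epithelial cells. The deleted part of Ehf, the cells in which it is deleted and the genetic background are, in the sources used here, not given. With 1 library per genotype no difference between Ehf_KO and WT has a replicate check, nothing could be tested. Intervals are 95% intervals that cover counting error only.

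Basal cells, also called myoepithelial cells, wrap ducts and alveoli, carry the keratins Krt14 and Krt5 together with smooth muscle proteins, and contract under oxytocin to eject milk. Both epithelial layers expand during pregnancy, before milk secretion begins. A dividing cell copies its DNA in S phase with the Mcm helicase and the DNA polymerases, then condenses and separates its chromosomes in mitosis with cyclin B, Cdk1, the kinesins and the Aurora kinases. Genes for S phase are known targets of E2F factors, and many genes for mitosis carry a cell cycle homology region (CHR) and CCAAT boxes, through which the DREAM complex silences them in resting cells and B-Myb and FoxM1 act later in the cycle. Ehf belongs to the ETS transcription factors and is found in epithelia.

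The letters of these elements are shown for 5 promoters of cell cycle genes that hold at least 1 of them, so that their spacing can be seen. Windows of 250 bases before to 50 bases after each start came from RefSeq (GRCm38.p6). TTTGAA (CHR) and CCAAT were searched on both strands, and for E2F the words TTTCCCGC, TTTGGCGC, TTTGCCGC and TTTCGCGC. The 120 bases just before the start are printed 5′ to 3′ on the gene's strand for 4 genes of the rule and for Depdc1a, which ranked first among the genes outside the rule that were highest in cycling cells, with CHR and CCAAT letters of either strand in capitals. The windows are chr10:69352913-69353032 (minus) for Cdk1, chr11:99024190-99024309 (minus) for Top2a, chr2:164769809-164769928 (plus) for Ube2c, chr13:100786487-100786606 (minus) for Ccnb1 and chr3:159495313-159495432 (plus) for Depdc1a.
Cdk1: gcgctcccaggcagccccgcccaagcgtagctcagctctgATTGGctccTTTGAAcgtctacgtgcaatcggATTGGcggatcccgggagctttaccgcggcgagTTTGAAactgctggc
Top2a: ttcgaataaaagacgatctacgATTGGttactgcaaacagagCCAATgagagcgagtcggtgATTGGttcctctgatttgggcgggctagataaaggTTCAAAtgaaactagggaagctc
Ube2c: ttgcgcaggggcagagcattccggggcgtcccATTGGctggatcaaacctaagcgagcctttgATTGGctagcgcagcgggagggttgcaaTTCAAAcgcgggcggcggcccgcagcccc
Ccnb1: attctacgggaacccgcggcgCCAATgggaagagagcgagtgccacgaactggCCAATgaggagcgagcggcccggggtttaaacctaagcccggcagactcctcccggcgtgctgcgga
Depdc1a: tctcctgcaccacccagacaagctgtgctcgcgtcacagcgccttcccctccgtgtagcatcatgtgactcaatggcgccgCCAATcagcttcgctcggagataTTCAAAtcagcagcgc
In Cdk1, Top2a, Ube2c and Depdc1a a CHR word stood within 30 bases of the start with a CCAAT box upstream of it, while the printed stretch of Ccnb1 held a pair of CCAAT boxes and no CHR word.

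Across gene lists the CHR word was a feature of the mitosis promoters. It was found in 30 of 41 matched genes of a list of mitosis genes outside the rule (73.2%), against 6 of 34 DNA replication genes (17.6%), 3 of 23 contractile genes (13%) and 20.2% of all 27025 genes. CHR and CCAAT together were found in 61.0% of the mitosis genes and 7.97% of all genes. E2F words showed another order, with 16 of 34 replication genes (47.1%), 3 of 41 mitosis genes (7.32%), 2 of 23 contractile genes (8.70%) and 2.60% of all genes. Of the 8 genes of the rule, 5 held CHR and 6 held CCAAT, while Birc5 and Nusap1 held none of the words. A match is a description of letters and shows no binding.

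**Figure D1:**
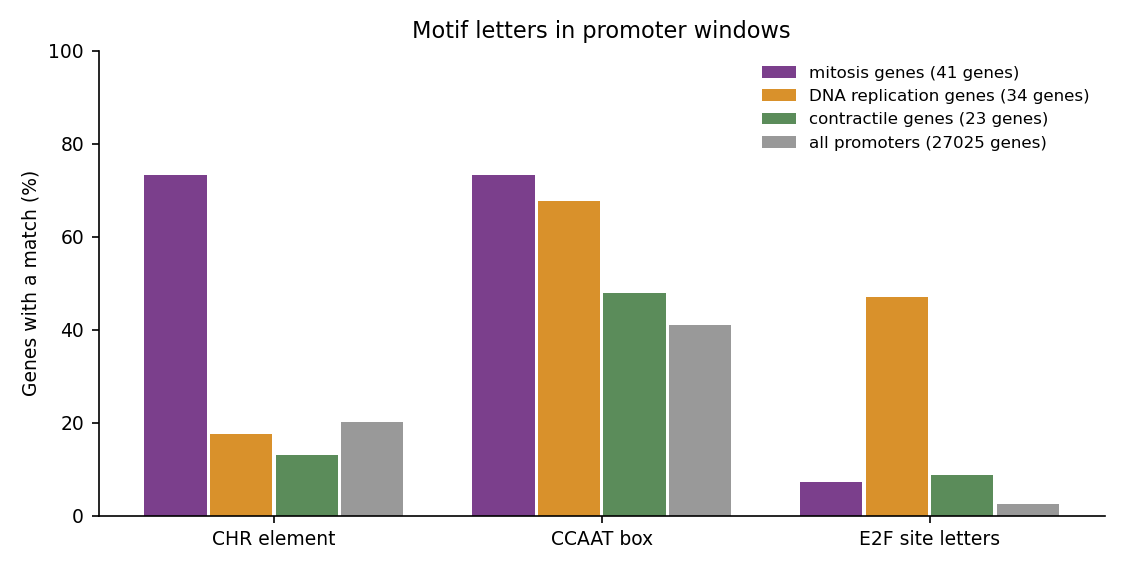
Percent of matched genes whose RefSeq promoter window holds each motif on either strand, for mitosis, DNA replication and contractile genes and for all genes. The CHR word is in 73.2% of mitosis genes and 20.2% of all genes, and E2F words are in 47.1% of replication genes and 2.60% of all genes.

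Krt14, Krt5 and Acta2 are among the genes by which the rule chose basal cells, so their presence describes that choice and is no check of the label. Krt14 was seen in 96.5% of Ehf_KO and 94.2% of WT cycling basal cells, Krt5 in 94.5% and 89.1%, and Acta2, smooth muscle actin, in every one. Genes of the basal layer that the rule did not use were seen in part of the cells. Trp63, the transcription factor that maintains basal epithelium, was seen in 52.2% of Ehf_KO and 33.5% of WT cycling cells, and the oxytocin receptor gene Oxtr in 67.2% and 73.9%. Cycling cells were deep: they had a median of 7240 UMIs in Ehf_KO and 4086 in WT, while non-cycling basal cells had 3641 and 2049. They held a median of 24 cell cycle UMIs in Ehf_KO (quartiles 8 and 38, highest 82) and 18 in WT (10 and 25, highest 56). At the threshold, 20 Ehf_KO and 17 WT cells held exactly 3 cell cycle UMIs and 80 and 51 held 2. Most non-cycling cells were far from it, with no cell cycle UMI in 87.6% of them in Ehf_KO and 92.9% in WT. Both libraries used 25 of the same barcodes, and no cycling basal cell was among them.

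Some cells chosen by the rule also held genes of other cell types, and more often in WT. Luminal keratin and claudin UMIs, taken 4 times, reached the number of basal UMIs in 22 Ehf_KO cells (10.9%) and 53 WT cells (20.6%), against 1.97% and 3.42% of non-cycling basal cells. Those 53 WT cells had a median of 11618 UMIs, of which milk protein genes were a median of 25.6%. At least 3 UMIs of 8 endothelial genes were seen in 6 Ehf_KO cells, 4 of them with no Krt14 or Krt5 UMI, and in 11 WT cells, of which 1 had none and 8 had at least 5. The sort was against CD31, an endothelial surface protein, yet 24 Ehf_KO and 69 WT cells among all those kept reached this minimum. Whether the members with endothelial genes were endothelial cells was not tested. Pericyte genes passed the same minimum in 6 and 11 cells, of which 4 and 10 were among those with endothelial genes. Summed over the cycling cells, immune genes had 68.7 CPM in Ehf_KO and 141 in WT cycling cells, against 69.4 and 151 in non-cycling cells, Schwann genes 106 and 118, against 93.4 and 138, and fibroblast genes 396 and 584, against 472 and 604. The members of the fibroblast list did not follow its sum. By the ratios and the 1.5-fold limit used below, 3 of 5 measured members were higher in cycling cells of Ehf_KO (median 0.93) and 6 of 7 in WT (1.52). The shares of all genes higher were 13.8% and 16.9%. Without cells holding markers of another type the medians of the fibroblast list were −0.53 and −0.64. Dpt, a dermatopontin gene of fibroblasts, had no UMI in WT cycling cells, and neither had the T cell gene Cd3e in Ehf_KO. Counting luminal, endothelial and pericyte genes and milk protein UMIs above 5%, 26 Ehf_KO cells (12.9%) and 72 WT cells (28%) held markers of another type. That leaves 175 and 185 cells. Every list below was also summed over these alone, a choice made after the data were seen, and the text calls them the unmixed cells. Immune, Schwann and fibroblast genes were not part of this count. At least 3 UMIs of these lists were held by 4.57%, 9.14% and 41.7% of unmixed Ehf_KO cycling cells. In unmixed WT cycling cells the values were 1.08%, 7.03% and 25.9%. A doublet caller marked 138 WT cells and 1 Ehf_KO cell of those kept, too few in Ehf_KO to have worked. At the WT score threshold 3 Ehf_KO and 16 WT cycling basal cells would be called. Whether a mixed cell was a doublet, free RNA or a true intermediate was not tested.

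The share of basal cells that cycled depended on depth. Each cell was thinned at random to 2000 UMIs, since deeper cells have more chances to reach 3 cell cycle UMIs, and shallower cells were left out. Thinned in this way, 2.76% of Ehf_KO basal cells (149 of 5406, 2.34 to 3.23%) and 5.51% of WT basal cells (197 of 3575, 4.79 to 6.31%) cycled. This left out 213 Ehf_KO and 2966 WT basal cells. The ratio of the shares was 0.50. Thinned to 1000 UMIs, which left out no cell, the shares were 1.90% (1.56 to 2.30%) and 2.52% (2.16 to 2.93%), a ratio of 0.755. Without thinning they were 3.58% (3.11 to 4.10%) and 3.93% (3.47 to 4.43%), with intervals that overlap and a ratio of 0.910. The Ehf_KO share was the lower at every depth, but its distance from WT moved with the depth and with the WT cells left out, and the size of the difference cannot be told apart from the depth gap between libraries. In the same libraries the luminal shares had the opposite order, at 19.4% of 921 Ehf_KO and 5.49% of 2406 WT luminal cells thinned to 2000 UMIs. Milk protein genes take up a median of 35.0% of the UMIs of WT and 5.98% of those of Ehf_KO cycling luminal cells. With milk protein UMIs left out before thinning, the luminal shares were 20.1% and 8.61% and the basal shares 2.70% and 5.82%.

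**Figure D2:**
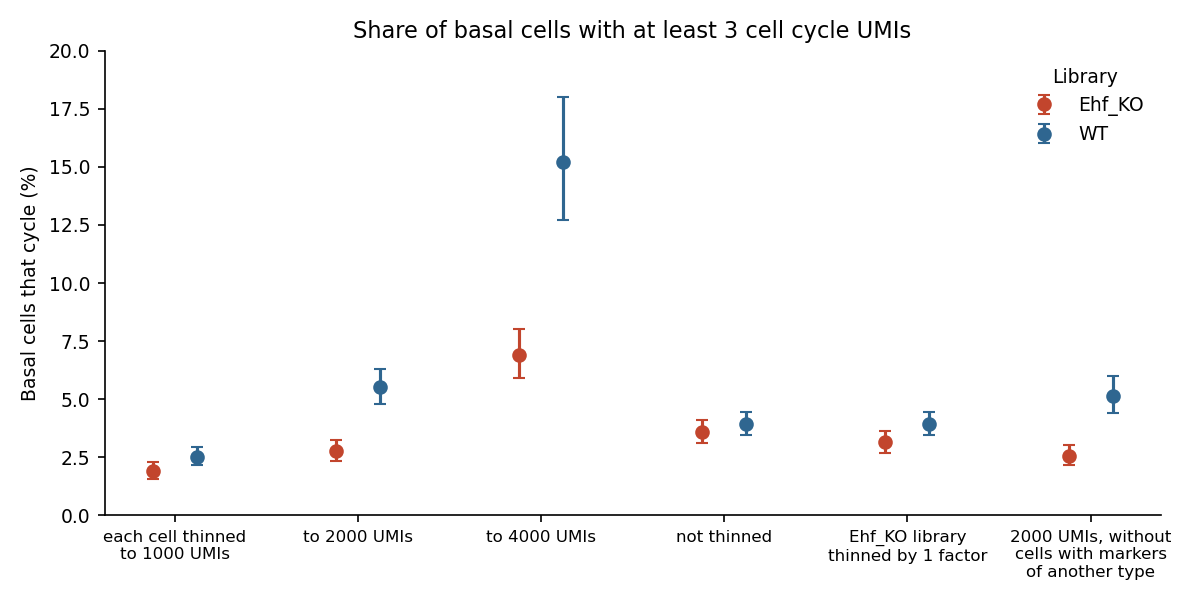
Percent of basal cells with at least 3 cell cycle UMIs in Ehf_KO and WT at each depth of thinning, without thinning, with the Ehf_KO library thinned by 1 factor, and without cells with markers of another type, with 95% Clopper-Pearson intervals for counting error. The Ehf_KO share is the lower at every depth, by the most at 4000 UMIs (6.91% against 15.2%, leaving out 3332 and 5792 cells) and by the least without thinning.

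To describe what else these cells expressed, UMIs were summed per library over cycling and over non-cycling basal cells. The 4 sums were brought to 1 scale by the median of their gene ratios, and levels are given as scaled CPM (counts per 1e6 UMIs). Differences are log2 ratios of cycling over non-cycling cells, and a gene at least 1.5-fold away is called higher or lower, which is a rule of size and not a test. Since cells were chosen by cell cycle genes, all these differences are descriptions. Of all genes with at least 50 UMIs, 13.8% were higher and 12.6% lower in cycling cells of Ehf_KO (11500 genes), and 16.9% higher and 15.4% lower in WT (10953 genes). In either direction this was 26.4% in Ehf_KO and 32.2% in WT. The medians of all genes were −0.01 and 0.02.

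Mitosis genes outside the rule were all higher in cycling cells. These were 51 of 51 measured members in Ehf_KO, against 13.8% of all genes, and 53 of 53 in WT, against 16.9%, with medians of 5.66 and 5.88. Together they held 5734 scaled CPM in cycling and 340 in non-cycling cells of Ehf_KO, and 6349 and 331 in WT. Among them Ccna2, cyclin A2, which drives S phase and entry into mitosis, was at 138 scaled CPM in cycling and 1.26 in non-cycling Ehf_KO cells, and at 187 and 1.34 in WT cells. That made log2 ratios of 6.77 (6.22 to 7.37) and 7.12 (6.48 to 7.83). Tpx2, which builds the spindle and activates Aurora A, was at 158 and 1.01 scaled CPM in Ehf_KO and at 165 and 1.54 in WT. Aurkb, the kinase of the chromosomal passenger complex, was at 62.4 and 0.674 in Ehf_KO and at 88.3 and 0.512 in WT. In each of these genes the lowest cycling sum stood far above the highest non-cycling sum, whichever library it came from.

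The smallest levels in non-cycling cells rested on few molecules. Nuf2, a kinetochore protein, had 75 UMIs in cycling and 7 in non-cycling cells of Ehf_KO and 88 and 4 in WT, so its log2 ratios of 7.15 (6.03 to 8.51) and 7.82 (6.42 to 9.73) have wide intervals. Kif23, a kinesin of cytokinesis, lay at 7.18 and 6.74, and Anln, anillin of the contractile ring, at 6.70 and 6.62. Hmmr, a spindle protein, was at 7.01 and 6.64, Bub1b, the checkpoint kinase BubR1, at 6.54 and 6.81, and Depdc1a at 7.05 and 6.82. In unmixed cells the list's medians were 5.80 in Ehf_KO and 6.45 in WT, with 51 of 51 and 47 of 47 members higher, against 12.4% and 15.6% of all genes.

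DNA replication genes were also higher, by less. In Ehf_KO 34 of 35 measured members were higher and in WT 29 of 33, against 13.8% and 16.9% of all genes. None was lower in either, and the medians were 1.94 and 1.83. Uhrf1, which brings the maintenance methyltransferase to newly copied DNA, had 55.7 scaled CPM in cycling and 5.73 in non-cycling cells of Ehf_KO, and 55.4 and 5.00 in WT. Mcm5, a subunit of the replicative helicase, had 35.1 and 4.00 in Ehf_KO and 32.3 and 2.75 in WT. Lig1, the ligase that joins Okazaki fragments, had 179 and 23 in Ehf_KO and 156 and 20.8 in WT. These genes were thus present in non-cycling cells at a level nearer to that of cycling cells than the mitosis genes were. Prim1, the small subunit of primase, lay at 2.86 in Ehf_KO and 3.42 in WT.

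Genes that supply nucleotides and package the new DNA followed. In the nucleotide list 13 of 20 members were higher and 1 lower in Ehf_KO (median 0.93), and 12 of 20 higher in WT (0.97). For this list and the histone and tubulin lists below, the shares of all genes higher were 13.8% in Ehf_KO and 16.9% in WT. Tk1, thymidine kinase, was at 5.57 and 5.89, Rrm2, a ribonucleotide reductase subunit, at 3.38 and 3.37, and Tyms, thymidylate synthase, at 3.09 and 3.02. Of 25 measured histone and chromatin genes, 20 were higher in each library (medians 1.41 and 1.54). Hmgb2, a chromatin protein of dividing cells, had 710 scaled CPM in cycling and 81.3 in non-cycling cells of Ehf_KO, and 579 and 59.9 in WT. H2ax, the histone variant marked at DNA breaks, was at 2.59 and 2.69. The linker histone gene H1f5 was at 6.37 and 5.92, but histone genes have near-identical copies between which the counting could split reads. Stmn1, which destabilises microtubules, and Tubb5, a beta tubulin, had 3.00 and 1.87 in Ehf_KO and 3.44 and 2.19 in WT, within a tubulin and spindle list with 11 and 12 of 18 members higher.

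**Figure D3:**
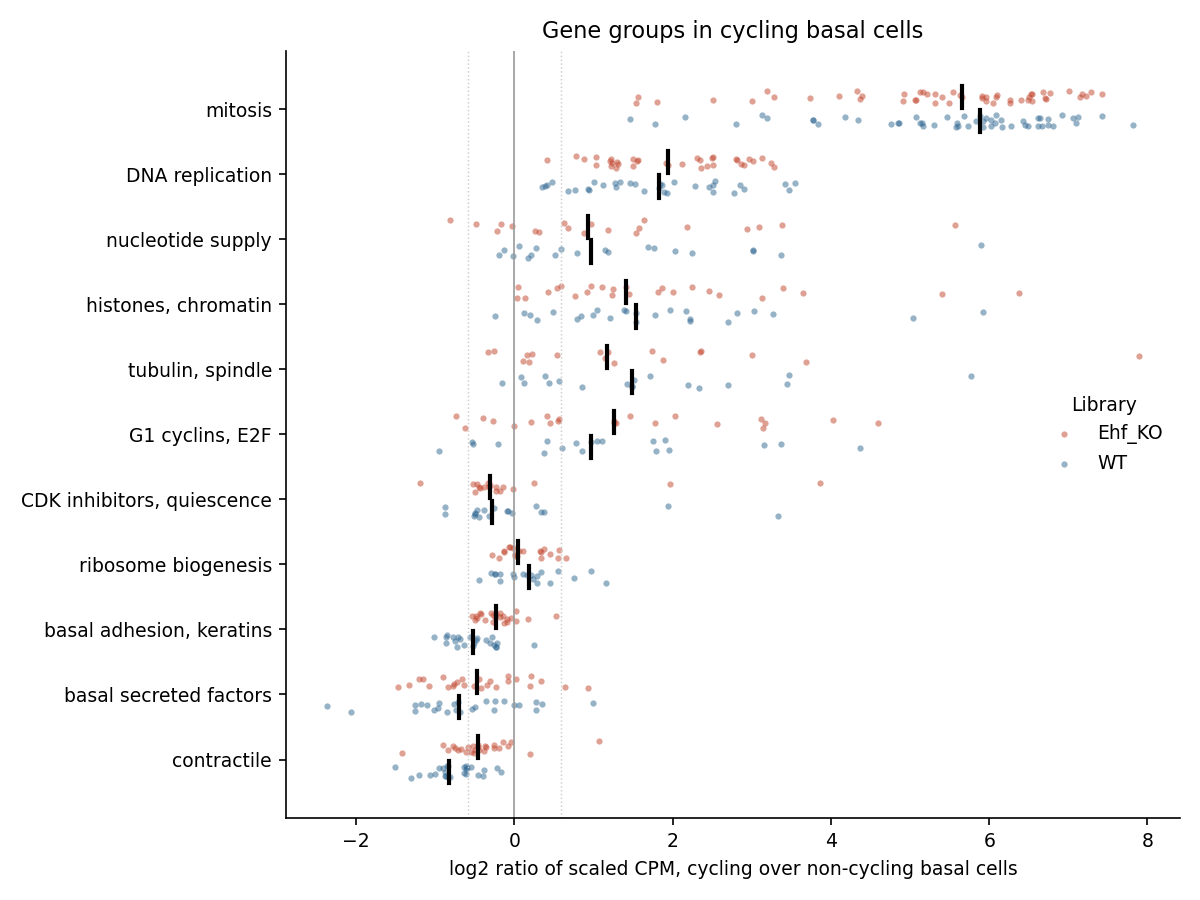
Log2 ratios of cycling over non-cycling basal cells for the measured members of each gene list, Ehf_KO and WT, with 1 point per gene and the median of each list as a line. Mitosis genes have medians of 5.66 and 5.88, replication genes 1.94 and 1.83, and contractile genes −0.46 and −0.83.

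Regulators of entry into the cycle were more mixed. Among G1 cyclins, E2F factors and cell cycle transcription factors, 12 of 22 were higher and 2 lower in Ehf_KO, against 13.8% and 12.6% of all genes. In WT 13 of 19 were higher and 1 lower, against 16.9% and 15.4%. Ccne2, cyclin E2 of the G1 to S transition, had 50.2 scaled CPM in cycling and 5.56 in non-cycling cells of Ehf_KO, and 50.8 and 5.70 in WT. E2f8, a repressive E2F, lay at 4.03 and 4.36, Rbl1, the pocket protein p107, at 3.12 and 3.36, and Mybl2, which is B-Myb, at 2.56 and 1.95. The D cyclins link growth signals to the cycle. Ccnd2 had 364 scaled CPM in cycling and 479 in non-cycling cells of Ehf_KO, and 264 and 383 in WT, but 420 and 507 in Ehf_KO and 419 and 422 in WT in unmixed cells. Ccnd1 was at 244 and 184 in Ehf_KO and at 164 and 95.4 in WT, a log2 ratio of 0.41 and 0.78, but 0.05 and 0.16 in unmixed cells. Ccnd3 was at 0.57 and 0.37.

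Inhibitors of the cycle did not stand apart from all genes by count. In each library 2 of 18 measured members were higher, while 1 was lower in Ehf_KO and 2 in WT. The shares of all genes were 13.8% higher and 12.6% lower in Ehf_KO, and 16.9% and 15.4% in WT. The higher members were the p18 and p19 inhibitors of the Ink4 family. Cdkn2c (p18) had 59.1 scaled CPM in cycling and 4.05 in non-cycling cells of Ehf_KO, and 63.9 and 6.34 in WT, and Cdkn2d (p19) lay at 1.97 and 1.94. In unmixed cells 2 members were higher and 2 lower in Ehf_KO, and 4 higher and 4 lower in WT. The shares of all genes were then 12.4% and 14% in Ehf_KO and 15.6% and 17.2% in WT. The Cip and Kip inhibitors lay within 1.5-fold of their non-cycling levels in all cells. In unmixed WT cells Cdkn1b and Cdkn1c lay past it and Cdkn1a did not. Cdkn1a (p21) was at 329 and 385 scaled CPM in Ehf_KO and at 237 and 334 in WT, Cdkn1b (p27) at log2 ratios of 0.24 and 0.34, and Cdkn1c (p57) at −0.02 and 0.27. In unmixed cells Cdkn1b was at 0.19 and 0.73 and Cdkn1c at 0.10 and 0.63. With each pair of classes centred on its own median, Cdkn1a was at −0.12 in Ehf_KO and −0.50 in WT unmixed cells. The WT intervals of Cdkn1b (0.29 to 1.16) and Cdkn1c (0.31 to 0.96) then reached inside 1.5-fold. Gadd45b, a stress gene, was lower, at −1.19 and −0.88. Among p53 target and DNA damage genes 8 of 18 were higher and 4 lower in Ehf_KO, against 13.8% and 12.6% of all genes. In WT 7 of 17 were higher and 3 lower, against 16.9% and 15.4%. Brca2, a gene of homologous recombination repair, was among the higher members, at 2.33 and 2.32. Of 20 ribosome biogenesis genes, 1 was higher in Ehf_KO and 3 in WT, against 13.8% and 16.9% of all genes. Their medians were 0.05 and 0.18.

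Cell by cell, the counts of division and replication transcripts had rank correlations between −0.29 and 0.08. At 2000 UMIs per cell, mitosis genes outside the rule gave a median of 13 UMIs in cycling cells of Ehf_KO (quartiles 6 and 20, lowest 0, highest 40) and 17 in WT (9 and 24, lowest 0, highest 49), against a median of 0 in non-cycling cells of both. Thinning left out 1 Ehf_KO and 15 WT cycling cells. Replication genes gave a median of 3 in both libraries (quartiles 1 and 6 in each), against 1 in non-cycling cells. At least 3 UMIs of both lists were held by 54.5% of Ehf_KO and 51.7% of WT cycling cells, and mitosis without replication by 35.0% and 38.8%. Replication without mitosis was held by 2 of 200 and 7 of 242. Over cells, the mitosis and replication counts had a Spearman rho of 0.08 in 200 Ehf_KO and −0.01 in 242 WT cells, or 0.02 and −0.29 in 175 unmixed cells of each, while the mitosis counts and the 8 genes of the rule had 0.77 in both, or 0.76 and 0.61 in unmixed cells. Cells of a library share its depth and free RNA, so these are descriptions.

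The 8 genes of the rule are mostly genes of G2 phase and mitosis. Most cells with at least 3 replication UMIs and fewer than 3 mitosis UMIs were outside it. Of non-cycling basal cells, 10.0% in Ehf_KO (521 of 5206) and 9.60% in WT (320 of 3333) held at least 3 replication UMIs at 2000 UMIs per cell. Fewer than 3 mitosis UMIs were held by 475 and 297 of them. The mean over non-cycling cells was 1.09 replication UMIs in Ehf_KO and 1.04 in WT. How many cells reached 3 by counting scatter alone, and whether any were in S phase, was not tested. At least 3 mitosis UMIs were held by 4.09% and 3.36% of non-cycling cells. At least 10 mitosis UMIs were held by 62.0% of Ehf_KO and 72.3% of WT cycling cells. In unmixed cells this was 65.7% (58.2 to 72.7%) of 175 Ehf_KO and 89.1% (83.6 to 93.3%) of 175 WT cells. The WT cycling cells without mixed ones were thus richer in mitosis transcripts per cell, and WT cells had entered the rule from a shallower library, in which 3 cell cycle UMIs are a larger part of a cell. The part of that depth gap in this difference was not tested.

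**Figure D4:**
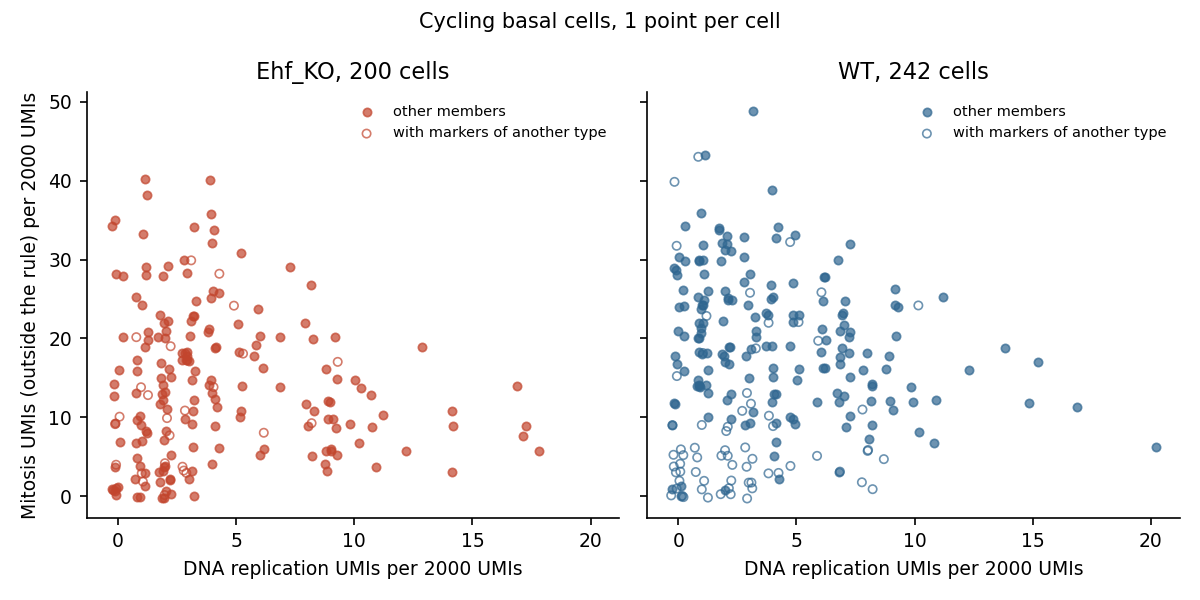
UMIs of mitosis genes outside the rule against UMIs of DNA replication genes in each cycling basal cell of Ehf_KO (200 cells) and WT (242 cells), each cell thinned to 2000 UMIs, with points moved slightly at random to part those that overlap. Open points are cells with markers of another type; mitosis UMIs run from 0 to 40 in Ehf_KO and from 0 to 49 in WT, and cells with many of them are found at low as well as middle replication counts.

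Genes of the contractile apparatus outside the rule tended to be lower in cycling cells. In Ehf_KO 9 of 27 measured members were lower and 1 higher (median −0.46), against 12.6% of all genes lower, and in WT 20 of 26 were lower (median −0.83), against 15.4%. Tagln, the actin-binding protein transgelin, had 2825 scaled CPM in cycling and 5262 in non-cycling cells of Ehf_KO, and 2704 and 6659 in WT, ratios of −0.90 (−0.94 to −0.86) and −1.30 (−1.35 to −1.26). Tpm2, beta-tropomyosin, had 1861 and 3043 in Ehf_KO and 1895 and 3975 in WT. Ppp1r14a, an inhibitor of myosin phosphatase, had 86.9 and 234 in Ehf_KO and 106 and 303 in WT. The levels of Tagln and Tpm2 in cycling cells were nearly the same in both libraries, but without mixed cells Tagln had 3289 in Ehf_KO and 3772 in WT cycling cells and Tpm2 2198 and 2854. For the whole list the median of Ehf_KO over WT was then −0.39 in cycling and −0.39 in non-cycling cells, against −0.07 and −0.33 in all cells. Lmod1, leiomodin, lay at −0.77 and −0.82, Pdlim3, a Z-disc protein, at −0.84 and −0.85, and Synm, synemin, at −0.75 and −1.20. Among the genes that made the rule, Acta2 had 10141 and 14588 scaled CPM in Ehf_KO and 10287 and 18235 in WT.

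The gap was smaller in unmixed cells. There 5 of 26 contractile genes were lower in Ehf_KO (median −0.37), against 14% of all genes, and 9 of 26 in WT (−0.40), against 17.2%, so the Ehf_KO count was near that of all genes. Single members still stood apart, with Tagln at −0.76 and −0.96 and Ppp1r14a at −1.26 and −1.12. Per cell at 2000 UMIs, contractile genes gave a median of 31 UMIs in cycling and 43 in non-cycling cells of Ehf_KO, and 36 and 64 in WT. In unmixed cells these were 31 and 44 in Ehf_KO and 41 and 66 in WT. In those cells the mitosis UMIs per cell had a Spearman rho with the contractile UMIs of −0.20 in Ehf_KO and −0.19 in WT, while over all cycling cells it was −0.16 and 0.26, of opposite sign in WT.

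Adhesion and keratin genes of the basal layer differed less. None of 23 was lower or higher in Ehf_KO (median −0.24), and 10 of 23 were lower in WT (−0.52), or 1 and 4 in unmixed cells. The shares of all genes lower were 12.6% in Ehf_KO and 15.4% in WT, or 14% and 17.2% in unmixed cells. The unmixed WT count was thus near that of all genes. Trp63 was at 91.4 and 124 scaled CPM in Ehf_KO and at 78.4 and 142 in WT. Perp, a desmosomal target of p63, lay at −0.53 and −0.68, and Dst, dystonin of the hemidesmosome, at −0.50 and −0.75. Of the matrix list, 2 of 21 were higher and 2 lower in Ehf_KO, against 13.8% and 12.6% of all genes. In WT 4 of 22 were higher and 6 lower, against 16.9% and 15.4%. Fbln1, the matrix protein fibulin 1, had 26.2 scaled CPM in cycling and 4.93 in non-cycling cells of Ehf_KO, and 15.8 and 3.46 in WT. Mmp2, a gelatinase that remodels basement membrane, had 26.2 and 58.9 in Ehf_KO and 22.4 and 57.6 in WT. These genes thus lay on opposite sides, and both kept their side in unmixed cells (2.55 and 2.59 for Fbln1, −1.16 and −1.85 for Mmp2).

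Many secreted factors of basal cells were lower. In Ehf_KO 12 of 26 were lower and 2 higher (median −0.48), against 12.6% and 13.8% of all genes. In WT 14 of 26 were lower and 1 higher (−0.70), against 15.4% and 16.9%. Igfbp5, an IGF binding protein abundant in this layer, had 885 scaled CPM in cycling and 1973 in non-cycling cells of Ehf_KO, and 578 and 1247 in WT. Chil1, a chitinase-like secreted protein, had 35.1 and 88.4 in Ehf_KO and 7.91 and 33.0 in WT. Wnt5a, a non-canonical Wnt ligand, rested on 15 UMIs in cycling Ehf_KO cells and 14 in WT, at −1.21 and −1.25. The Wnt modulator gene Dkk3 lay at −1.46 and −2.37 and Ccn2, connective tissue growth factor, at −0.91 and −1.01. Igfbp7 was among the higher members, at 0.93 and 0.99, but it was at −0.60 and −0.48 in unmixed cells. In unmixed cells 9 of 26 members were lower in Ehf_KO and 8 in WT, against 14% and 17.2% of all genes.

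Notch and Wnt pathway genes went both ways, 5 of 22 higher and 5 lower in Ehf_KO, and 5 higher and 7 lower in WT. Over all genes 26.4% and 32.2% were past 1.5-fold in either direction. Without mixed cells, with each pair of classes centred on its own median, 2 of 21 were higher and 4 lower in Ehf_KO. The WT counts were then 1 and 4 of 21. Of all genes without mixed cells, 12.4% were higher and 14% lower in Ehf_KO, and 15.6% and 17.2% in WT. The list thus did not stand apart from all genes. Jag1, a Notch ligand, had 52.9 scaled CPM in cycling and 113 in non-cycling cells of Ehf_KO, and 42.2 and 119 in WT, with ratios of −1.16 and −1.15 in unmixed cells. The receptor gene Notch1 lay at 1.11 and 0.78, or 0.67 and 0.74 in unmixed cells. Hes1, a Notch target, had 219 and 90.2 scaled CPM in Ehf_KO and 394 and 164 in WT. Its ratios of 1.28 and 1.26 were 0.50 and 0.36 in unmixed cells, and those of Id1, a BMP target, were 1.44 and 2.78 but −0.35 and −0.38. A list of genes associated with basal stem cells had 5 of 16 higher and 2 lower in Ehf_KO and 4 of 14 higher and 4 lower in WT. Of all genes, 13.8% were higher and 12.6% lower in Ehf_KO, and 16.9% and 15.4% in WT. Without mixed cells, centred in the same way as above, 2 of 13 were higher and 1 lower in Ehf_KO, and 2 and 3 of 10 in WT. That list holds Cdh5, which is also an endothelial gene, seen in 2.99% and 4.28% of cycling cells, at ratios of 4.46 and 4.87. The 8 endothelial genes summed to 289 CPM of all UMIs in cycling cells of Ehf_KO and 363 in WT, against 16.9 and 17.9 in non-cycling cells, and to 4.39 and 2.60 in unmixed cycling cells.

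Genes taken by the naming rule as lowest in cycling cells of both libraries were of several kinds. Ccl7, a monocyte chemokine, had 39.0 scaled CPM in cycling and 140 in non-cycling cells of Ehf_KO, and 16.5 and 82.2 in WT. Angptl4, a secreted inhibitor of lipoprotein lipase, had 119 and 279 in Ehf_KO and 105 and 249 in WT. Fhod3, a formin that assembles sarcomeres in heart muscle, had 81.9 and 193 in Ehf_KO and 115 and 332 in WT. All of these sums stood apart in the same direction in both libraries. The histone demethylase genes Kdm5b (−1.11 and −1.32) and Kdm7a (−1.46 and −1.14) were also in this group, as were Fbxl22, an F-box protein (−1.43 and −1.39), Scn7a, a sodium channel (−1.18 and −1.57), and Aopep, an aminopeptidase (−1.46 and −1.22). Wfdc12 had the lowest ratios, at −2.89 and −4.55, but rested on 18 UMIs in cycling Ehf_KO cells and 4 in WT, and was at −0.92 and −3.85 in unmixed cells. Immediate early and stress genes, which cell dissociation can induce, were lower for 4 of 20 in Ehf_KO and 5 of 20 in WT, not far from the 12.6% and 15.4% of all genes. Socs3, a feedback inhibitor of cytokine signalling, lay at −0.94 and −1.26, and Hspb1, a small heat shock protein, at −0.77 and −1.09.

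Between genotypes, Ehf itself had 19 UMIs in cycling cells of Ehf_KO and 62 in WT, and 96 and 284 in non-cycling cells. The log2 ratio of Ehf_KO over WT was −1.95 (−2.77 to −1.19) in cycling and −2.17 in non-cycling cells, and Ehf was seen in 4.48% of Ehf_KO and 14.0% of WT cycling cells. A 3' count outside the deleted part checks nothing, and the UMIs left in Ehf_KO could be such counts or free RNA, which was not tested. Ehf was higher in cycling than in non-cycling cells, at 1.39 and 1.17, but at 0.05 and 0.21 in unmixed cells.

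Few cell cycle genes differed between genotypes within cycling cells. Over all 6662 genes with at least 50 UMIs, 7.58% were at least 1.5-fold higher and 8.92% lower in Ehf_KO, 16.5% in all. Of 53 mitosis genes outside the rule, 1 was higher and 3 were lower, with a median of −0.18 that was 0.031 in plain CPM, which shifts the median of all genes by 0.22. The interval of Tpx2 (−0.31 to 0.19) included 0. Ccna2 had 138 scaled CPM in Ehf_KO and 187 in WT, and Aurkb 62.4 and 88.3. In unmixed cells the mitosis median was −0.50, with 21 of 53 members lower and none higher, against 7.67% of all genes lower and 8.89% higher. Of 30 replication genes 4 were higher and 1 was lower, at a median of 0.21, or 0.22 in unmixed cells. In unmixed cells the mitosis and replication medians thus lay on opposite sides of 0. This went with the share of cells holding at least 10 mitosis UMIs given above. Ribosome biogenesis genes were higher in Ehf_KO for 8 of 20 (median 0.52), as they were in non-cycling cells (8 of 20, median 0.56), where 5.66% of all genes were higher. Dkc1, dyskerin of the snoRNA complex, had 68.5 scaled CPM in Ehf_KO and 37.6 in WT cycling cells, and Nop56, a core snoRNA protein, 111 and 71.2.

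The genes named here as highest in Ehf_KO over WT cycling cells were also higher in Ehf_KO non-cycling cells. Wif1, a secreted Wnt inhibitor, had 70.2 scaled CPM in Ehf_KO and 20.4 in WT cycling cells, a ratio of 1.78 (1.20 to 2.40), and 110 and 34.1 in non-cycling cells. Cebpb, a transcription factor of mammary development, had 580 and 219 in cycling and 814 and 312 in non-cycling cells. For both genes the Ehf_KO level was the higher in both kinds of basal cell. Ccl2, a chemokine, lay at 1.58 in cycling and 1.24 in non-cycling cells, Fbln2, fibulin 2, at 1.41 and 1.54, Mgp, matrix Gla protein, at 1.40 and 1.36, and Lrrc17 at 1.34 and 0.99. Gt(ROSA)26Sor was at 1.80 and 1.28, at a locus with overlapping transcripts, and the use of strand in the counting is not stated in these sources. For Pdk4, a kinase that inhibits pyruvate dehydrogenase, the ratios were 1.54 and 0.59, and for Arc, an immediate early gene of neurons, 1.5 and 0.60. All of these stayed at 0.94 or above in unmixed cycling cells.

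**Figure D5:**
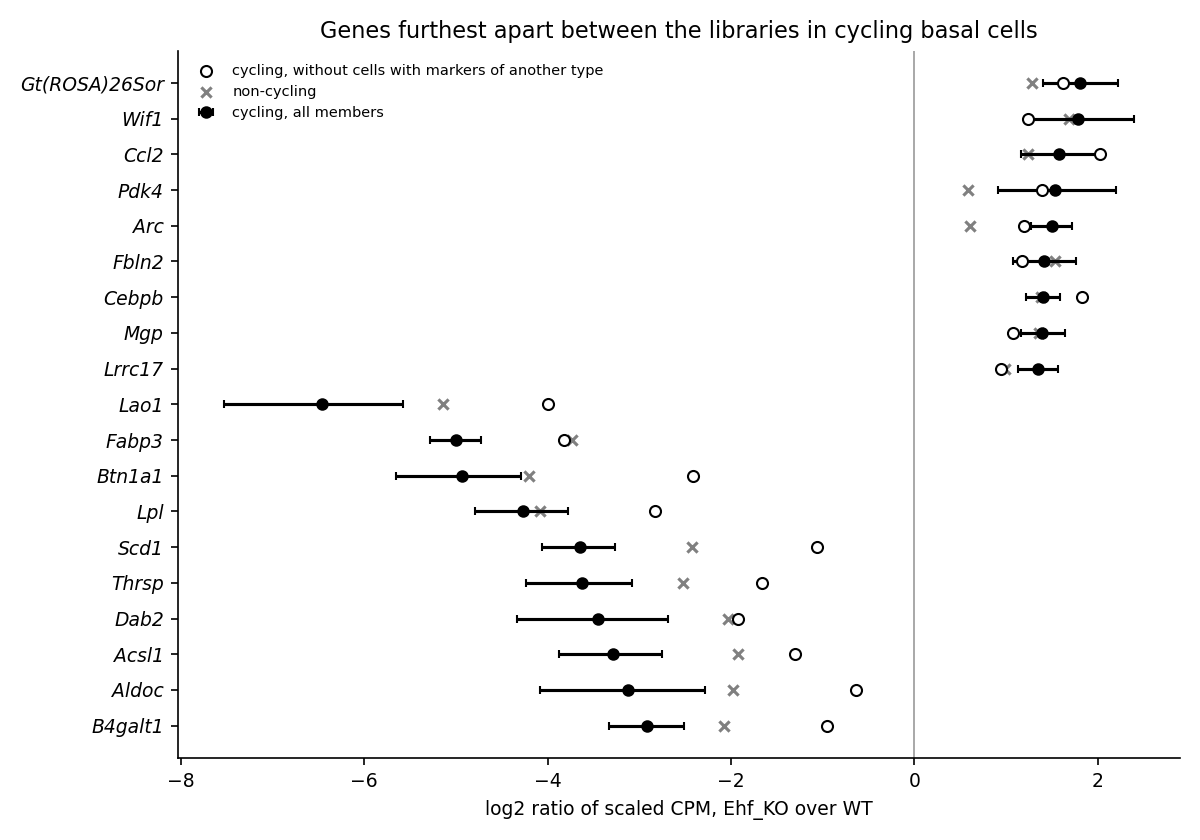
Log2 ratios of Ehf_KO over WT for genes that the naming rule takes as furthest apart, in all cycling basal cells (filled points, with exact 95% intervals for counting error), in cycling cells without markers of another type (open points) and in non-cycling basal cells (crosses). Wif1 is at 1.78 and 1.69 in cycling and non-cycling cells, Fabp3 at −5.00 and −3.73, and the genes lower in Ehf_KO lie nearer to 0 in the open points.

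Milk protein genes, which the naming rule left out of this ranking, were far lower in Ehf_KO cycling cells. All 12 were lower, with a median of −5.83 in cycling cells and −3.69 in non-cycling cells, where 7.85% of all genes were lower, and −3.10 in unmixed cycling cells with 10 of 11 lower. Fabp3, a fatty acid binding protein of the lactating gland, had 63.0 scaled CPM in Ehf_KO and 2010 in WT cycling cells, and 55.8 and 741 in non-cycling cells. Btn1a1, butyrophilin of the milk fat globule, had 11.1 and 339 in cycling and 6.53 and 121 in non-cycling cells. Lao1, an L-amino acid oxidase found in milk, had 10 and 745 UMIs in cycling cells, a ratio of −6.46. The others taken by the rule, among them the endocytic adaptor Dab2 and the glycolytic enzyme Aldoc, lay at −4.26 for Lpl, −3.65 for Scd1, −3.63 for Thrsp, −3.45 for Dab2, −3.29 for Acsl1, −3.13 for Aldoc and −2.91 for B4galt1. In unmixed cells Lpl was at −2.83, Dab2 at −1.93, Thrsp at −1.66, Acsl1 at −1.30, Scd1 at −1.06, B4galt1 at −0.95 and Aldoc at −0.64. Milk protein genes were 0.513% of all UMIs of cycling cells in Ehf_KO and 13.6% in WT, with medians per cell of 0.149% and 0.913%. Milk proteins are made by luminal cells, and the part of luminal RNA or luminal cells in these ratios was not tested.

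For a few genes the step between cycling and non-cycling cells was not alike in Ehf_KO and WT, and the difference itself could not be tested. Fbn2, fibrillin 2, had 45.7 scaled CPM in cycling and 24.9 in non-cycling cells of Ehf_KO, and 16.5 and 19.2 in WT, with ratios of 1.08 and 0.22 in unmixed cells. Cenpl, a centromere protein, had 22.3 and 17.5 in Ehf_KO and 40.9 and 12.7 in WT. Cxcl2, a neutrophil chemokine, had 24 and 32.5 in Ehf_KO and 159 and 58.2 in WT, and kept its sides in unmixed cells at −0.41 and 1.87. Ypel3 lay at −0.41 and −1.50, Palmd at 1.32 and 0.11, or 0.07 and −1.04 in unmixed cells, and the histone gene H2ac19, which has near-identical copies, at 4.05 and 2.74. Aqp1, a water channel of endothelium among other tissues, was at 4.31 and 2.81, but at 1.22 and 1.10 in unmixed cells. Lpin1 (−0.57 and 0.94), Dab2 (−0.47 and 0.95) and Acsl1 (−0.03 and 1.34) stood at −0.82 and −0.86, −1.20 and −0.58, and −0.29 and 0.08 in unmixed cells.

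Set beside the 360 Ehf_KO and 429 WT cycling luminal cells found with the same 8 genes, cycling basal cells stood further from their non-cycling neighbours. Each pair of classes was centred on its own median here. Mitosis genes outside the rule had a median of 5.66 in basal and 3.59 in luminal cells of Ehf_KO, and 5.86 and 3.96 in WT, and replication genes 1.95 and 1.26 in Ehf_KO, and 1.82 and 1.51 in WT. Non-cycling luminal cells were deeper than non-cycling basal cells, with medians of 7549 and 8222 UMIs, and the part of depth in these ratios was not tested. Top2a had 1246 CPM in cycling basal and 447 in cycling luminal cells of Ehf_KO, and 1170 and 225 in WT. In non-cycling cells it had 12.9 and 15.4 in Ehf_KO and 11.3 and 3.47 in WT. Top2a is a gene of the rule, which allows a non-cycling cell at most 2 UMIs of its 8 genes at any depth. These non-cycling levels are thus bound by the rule and by depth, and by themselves show no difference between the layers. Cycling luminal cells were deeper (medians of 18123 and 15453 UMIs) than cycling basal cells (7240 and 4086). The same 3 cell cycle UMIs are thus a smaller part of a luminal cell, and the part of this in the Top2a levels was not tested. The contractile list, lower in cycling basal cells, had luminal medians of −0.09 and 0.03. Ccnd2 had 393 CPM in Ehf_KO cycling basal and 7.88 in cycling luminal cells, and 247 and 3.60 in WT. Ccnd1 had 264 and 728 in Ehf_KO and 154 and 114 in WT. The level of Ccnd1 in unmixed cycling basal cells was 200 CPM in Ehf_KO and 113 in WT, so in WT it was close to the luminal 114. Milk protein genes were 36.6% of all UMIs of WT cycling luminal and 13.6% of those of WT cycling basal cells. In unmixed WT cycling basal cells they were 10044 CPM. These UMIs are part of the total over which CPM is taken. Their part in the order of the layers for Ccnd1 in WT was not tested. Cdkn1c had 124 and 3.77 in Ehf_KO and 74.0 and 0.720 in WT. Cdkn2c was at log2 ratios of cycling over non-cycling cells of 3.87 in basal and 1.06 in luminal cells of Ehf_KO, and 3.32 and 1.56 in WT. Here too there was 1 library per genotype and no test.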

How the data were processed

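Per the labels' protocols, cells were captured with the 10x Chromium 3' V3 kit. The values in the deposited matrices are UMI counts, all whole numbers and not normalized, by gene and barcode, and the deposited feature and barcode tables hold names only. The submitters' processing notes name Seurat 4.0.4 and the build GRCm38 (mm10). Which aligner and counting tool were used, how barcodes were kept and whether strand was used are, in the sources used here, not given. The Ehf_KO library held 7275 barcodes and 40066795 UMIs and the WT library 11258 and 48720938. Of 27179 features 1314 carry no symbol. The cycling sums held 1659696 and 1620973 UMIs, so 3 counts, the limit that a count of 0 allows, are 1.81 and 1.85 CPM.

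Cells were selected by the rule in the report. The cells, gene lists and comparisons were chosen with earlier results of these data known. Counts were summed per library and class and scaled by the median of ratios over the 4 sums. Genes needed at least 50 UMIs over the sums compared. Sums and ratios carry exact Poisson and exact conditional intervals and shares Clopper-Pearson intervals, all at 95% and for counting error only. Doublets were scored by Scrublet (scanpy 1.11.5, 6% expected) and were left in. The other tools were python 3.11.15, numpy 2.4.6, scipy 1.17.1, pandas 2.3.3 and matplotlib 3.10.9. The level step was tested on simulated data.

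Genes named were, leaving out predicted, mitochondrial, ribosomal protein, haemoglobin and immunoglobulin genes and features with no symbol, the 12 highest and 12 lowest outside the rule in cycling cells of both libraries at 50 scaled CPM or more, the 10 highest and 10 lowest Ehf_KO over WT ratios with at least 100 UMIs, and the 5 largest and 5 smallest differences between the 2 libraries' cycling over non-cycling ratios. From each of the 27 gene lists up to 6 members were taken, with Ehf and the cyclin and CDK inhibitor families. The text names part of these, and genes used to check the label. Some genes are not reported here. Milk protein genes were left out of the Ehf_KO over WT ranking. Alternatives covered scaling, weight of cells, gene and cell filters, thinning, the thresholds of the rule, doublets and mixed cells.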

Additional observations from a re-analysis of the deposited data

Results flagged for a closer look

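In 5 genes the step between cycling and non-cycling basal cells lay at least 1.5-fold away from no change on opposite sides in the 2 libraries. The counting interval of Csn1s2b in Ehf_KO (−4.90 to 0.06) included no change. The difference between the libraries was not tested, since there was 1 library per genotype. Of the milk protein genes, Csn1s2b was at −1.83 in Ehf_KO and 1.84 in WT, Glycam1 at −2.20 and 1.17, Lalba at −1.17 and 1.26 and Wap at −2.07 and 1.20, as log2 ratios of cycling over non-cycling cells. In cells without markers of another type they were at −1.07 and 0.11, −0.17 and −0.32, −0.76 and −0.46, and −1.02 and −0.40, so that 3 of them no longer stood on opposite sides. Thinned to 2000 UMIs per cell before summing, Csn1s2b was at 0.29 in Ehf_KO and 1.67 in WT and Lalba at 0.68 and 0.67, no longer on opposite sides, while Glycam1 was at −0.15 and 0.73 and Wap at −1.23 and 0.73. The matrix gene Fn1, fibronectin, was at −2.63 in Ehf_KO and 1.10 in WT, but rested on 1 UMI in cycling cells of Ehf_KO and 15 in WT, and was at −0.67 and −0.39 in cells without markers of another type and at 1.34 and −0.19 after thinning. A cycling WT cell held a median of 0.913% and a cycling Ehf_KO cell 0.149% of milk protein UMIs, and the part of luminal RNA in these ratios was not tested.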

How the results depend on the processing

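Leaving out mixed cells and the alternatives marked as added later were chosen after seeing the data. The share of cycling basal cells was 3.58% in Ehf_KO and 3.93% in WT without thinning, 1.90% and 2.52% at 1000 UMIs, 6.91% and 15.2% at 4000 UMIs, 3.50% and 6.46% with at least 2 cell cycle UMIs and 2.18% and 4.31% with at least 5. With at least 5 and no thinning, added later, it was 2.97% and 3.52%, and with the Ehf_KO library thinned by 1 factor of 0.563, also added later, 3.14% and 3.93%. The ratio of shares, 0.50 as reported, was 0.910 without thinning, 0.755 at 1000 UMIs, 0.845 with at least 5 and no thinning and 0.80 with 1 factor, and stayed below 1 in every alternative run. Without mixed cells it was 0.498.

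Counts of genes past 1.5-fold followed the filter on UMIs. With at least 200 UMIs per gene they were 807 higher and 710 lower in cycling cells of Ehf_KO, against 1584 and 1451 as reported, and 927 and 865 in WT, against 1848 and 1682. Cells of at least 3000 UMIs gave 1208 higher in WT. For Ehf_KO over WT in cycling cells, 505 higher and 594 lower as reported became 1139 and 317 in plain CPM, which shifts the median of all genes by 0.22, so that this split depends on scaling. They were 209 and 236 after thinning, 1010 and 1196 with at least 20 UMIs and 122 and 151 with at least 200.

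Of the single gene and list values, 2486 kept to within their counting interval (within 0.3 for a list's median), 533 moved and 28 reversed. With B more than 4 times L, WT ratios of cycling over non-cycling cells became −0.081 for Acsl1, −0.44 for Dab2, −0.35 for Glycam1, −0.21 for Lalba, −0.59 for Lpin1, −0.26 for Wap, −0.33 for the rule's luminal genes and −0.27 for milk protein genes, and that of Ehf in Ehf_KO −0.042. Without mixed cells they became in WT −0.58 for Dab2, −0.39 for Fn1, −0.32 for Glycam1, −0.46 for Lalba, −0.86 for Lpin1, −0.40 for Wap, −0.055 for the rule's luminal genes, −0.39 for milk protein and −0.58 for pericyte genes. In Ehf_KO and WT they became −0.35 and −0.38 for Id1, −0.60 and −0.48 for Igfbp7 and −0.53 and −0.64 for fibroblast genes. Thinned before summing, Ehf_KO ratios became 0.29 for Csn1s2b, 1.34 for Fn1 and 0.68 for Lalba, and that of Fn1 in WT −0.19. The causes were not tested. No paired analysis was possible because there was 1 library per genotype. Depth limits genes under about 2 CPM in the cycling sums.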
